A study of Mus musculus with 8 samples.

Results

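Ribosomes are assembled in the nucleolus. RNA polymerase I copies the ribosomal DNA into a long precursor RNA, small nucleolar ribonucleoproteins (snoRNPs) guide its chemical modification and cleavage, and a succession of assembly factors builds the small and the large subunit around the trimmed RNAs. Lymphocytes raise this machinery when they leave quiescence and grow, and the transcription factor Myc is known for activating many of its genes. The 47 genes described here cover that path: subunits and cofactors of RNA polymerase I, core proteins of snoRNPs, processing and assembly factors of both subunits, and a few abundant or multifunctional nucleolar proteins. They were chosen by symbol, with earlier results of these data known. Their shares of called genes are therefore a description and not an independent test. By Ensembl identifier, 46 of the 47 were found among the 36811 gene models of the deposited table. Noc2l is not analysed here. All 46 passed the filter on low values, as did 11260 gene models in all.

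The cells were splenic Treg cells, the Foxp3-dependent T cells that restrain immune responses, and their RNA was sequenced in bulk. All donors were C57BL/6 mice of 12 to 13 weeks and of genotype Foxp3EGFP-DTR Bach2tdRFP/+, so both groups carry a Foxp3 allele that makes green fluorescent protein with a diphtheria toxin receptor, and a red fluorescent reporter on 1 allele of Bach2, a transcriptional repressor. From GFP positive cells, cells of high (Bach2-RFP HI) and of low (Bach2-RFP LO) red signal were collected, and the labels name no treatment. Each gate has 4 libraries, named F1, F2 (female), M1 and M2 (male). The labels do not say how many cells or mice entered a library, nor that libraries came from separate mice, so the p-values speak only of how far these libraries scatter, which may be technical.

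Values are FPKM, fragments scaled by transcript length and by library size, so that levels are per length and can be compared between genes. Read totals are not in the table. Steps between low values put the libraries at 0.636 (HI M1) to 5.27 (LO M2) times the depth of HI F1, with the other 5 between 0.818 and 1.27. These ratios are coarse, since 3 libraries share the value 0.818. For LO M2, only 56.4% of the low values fitted whole steps within 1%, against 77.8% to 86.0% for the other libraries compared with HI F1. HI M1 also had the fewest models above 0 (11698) and LO M2 the most (14191). Bach2 itself stood at 15.6 ± 5.56 FPKM in HI and 0.691 ± 0.187 in LO (SD, n = 4 each), and Foxp3 at 14.2 ± 0.783 and 14.7 ± 3.97. The 10 T cell and Treg markers summed to 9801 to 11157 FPKM in HI and 11002 to 14830 in LO (2 of 10 higher, 1 lower). Markers of other cells summed to less than these but were not equal between the groups. The 8 B cell markers summed to 146 to 244 FPKM in HI and 77.3 to 104 in LO (3 of 7 tested lower in LO, Pax5 at 0 in the 4 LO libraries). The 6 dendritic cell markers summed to 213 to 290 and 132 to 242 (1 of 4 lower), and the 5 plasma cell markers to 123 to 150 and 178 to 269 (2 of 5 higher). The 7 red cell and platelet markers summed to 27.7 to 206 and 14.1 to 360 (0 of 4 tested called). The 9 myeloid markers summed to 145 to 329 and 100 to 261 FPKM (2 of 8 lower), the 4 NK cell markers to 4.71 to 9.47 and 0.602 to 5.26 (1 of 2 lower), and the 2 CD8 T cell markers to 36.8 to 46.5 and 24.2 to 33.6 (0 of 1 tested called). The 20 cell cycle genes summed to 480 to 586 FPKM in HI and 821 to 1225 in LO, 13 of 20 higher in LO. Over all genes tested, 3.64% were called lower and 4.65% higher in LO. The part of these marker and cell cycle differences in the results below was not tested.

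HI and LO libraries were compared to see how the nucleolar machinery differs between Treg cells with a low and with a high level of the Bach2 reporter. The nucleolar genes were lower in LO cells almost throughout, by modest amounts. Npm1, the nucleolar chaperone nucleophosmin, fell from 935 ± 153 to 418 ± 35 FPKM, and Mybbp1a, Nop10, Nop14, Rrp9, Gnl3, Nop58, Fbl and Nob1 also fell. In all, 9 of the 46 genes fell at an adjusted p below 0.05 (limma on log2(FPKM + 1), adjusted over the 11260 genes), beside 3.64% of all genes tested, and 0 rose, beside 4.65% of all genes. Over both directions 8.29% of all genes were called. At an unadjusted p below 0.05, limma put 23 of the 46 lower, beside 10.3% of all genes, and 0 of the 46 higher. The LO minus HI difference was negative in 44 of 46 genes, where it was negative in 52% of all genes tested. The median difference was -0.56 on the log2 scale, against -0.03 over all genes, and the quartiles of the 46 were -0.87 and -0.34, against -0.37 and 0.35.

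In 19 of the 46 genes all 4 LO values lay below all 4 HI values, which held for 7.18% of all genes tested, and in 0 of 46 did they lie above, which held for 7.9%. The count of called genes depended on the libraries used. It was 5 without HI M1, 5 without HI M2 and 5 without LO F2. The share of all genes called lower shrank as well, to 2.69%, 3.13% and 2.73%, from 3.64% with all libraries. The median difference of the 46 stayed between -0.62 and -0.47 when any 1 library was left out. Without the shallowest and the deepest library together, 3 genes were called lower (Npm1, Nop10 and Mybbp1a), beside 2.26% of all genes. The median was then -0.52. For the 37 genes not called, the p does not show that HI and LO were equal.

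**Figure D1:**
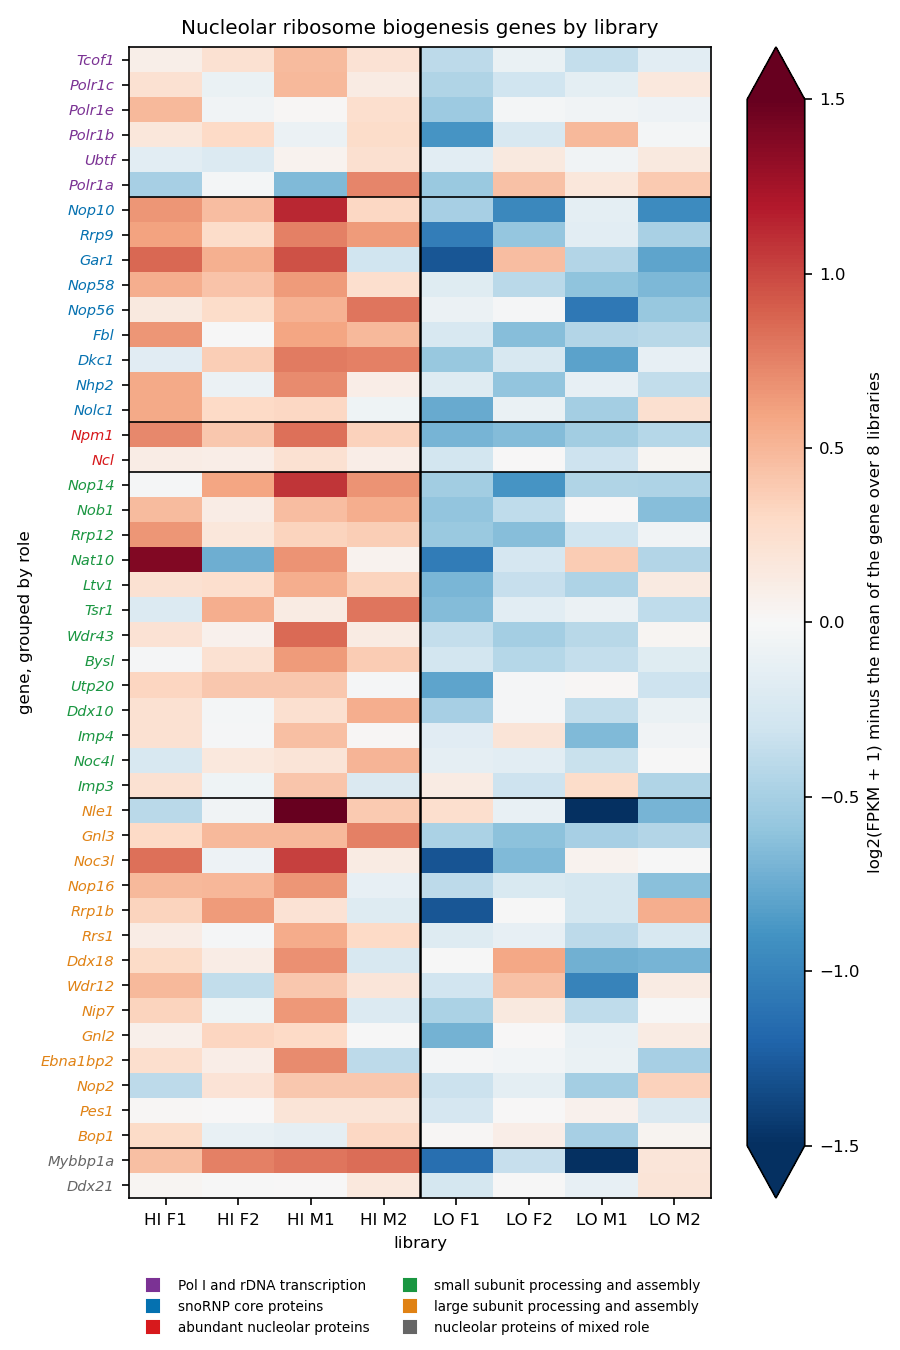
Each row is a gene, grouped by role and coloured by role in its label, and each column is a library; colour gives log2(FPKM + 1) minus the mean of that gene over the 8 libraries, with red above and blue below. The 4 HI columns are mostly red and the 4 LO columns mostly blue, HI M1 holds the highest value of 24 of the 46 genes, and the row of Ubtf is pale throughout.

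Summed over the 46 genes, the level was 3968, 3581, 4715 and 3818 FPKM in HI F1, F2, M1 and M2, and 2287, 2586, 2312 and 2558 FPKM in LO F1, F2, M1 and M2. No LO sum reached the lowest HI sum, and the mean was 1.65 times higher in HI. Npm1 alone makes up a large part of it, but without Npm1 the HI mean was still 1.53 times the LO mean. Over all gene models the FPKM also summed higher in HI, at 1836669 to 2142813, against 1494240 to 1758938 in LO. The highest of these totals was that of HI M1. Their part in the difference of the 46 genes was not tested. HI M1, the shallowest library, had the highest sum and held the highest value of 24 of the 46 genes, whereas LO F1 held the lowest value of 19. Over all genes tested, the median deviation of HI M1 from the gene means was 0.13 on the log2 scale, and over the 46 genes it was 0.48. In bulk samples, fewer cells of a kind with high nucleolar expression and less RNA per cell cannot be told apart.

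The 2 abundant nucleolar proteins had differences of unlike size. Npm1 (ENSMUSG00000057113), which chaperones ribosomal proteins and assembly intermediates, was the gene with the highest level of the 46. It stood at 1024, 820, 1103 and 791 FPKM in HI F1, F2, M1 and M2, and at 384, 395, 433 and 460 FPKM in LO F1, F2, M1 and M2. Every HI library was thus well above every LO library, by a factor of 2.24 in the means (log2 difference -1.15, SE 0.145, limma adjusted p = 0.00126). This call held under all 18 alternatives tried, with adjusted p between 0.00101 and 0.00855. Npm1 has processed pseudogenes that can share reads with it, so its level is uncertain.

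Ncl (ENSMUSG00000026234), nucleolin, which binds the precursor RNA and the ribosomal DNA, stood at 108, 107, 116 and 106 FPKM in HI and 81.6, 99.9, 79.5 and 101 FPKM in LO (F1, F2, M1, M2). The groups did not overlap but lay close, and the difference of -0.27 (SE 0.145, 95% interval -0.60 to 0.05) was not called (limma adjusted p = 0.319). The ratio of Npm1 to Ncl was 8.54 ± 1.13 in HI and 4.66 ± 0.612 in LO libraries (SD, n = 4 each), a pair picked after the values were seen and given without a test.

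Of the core proteins of snoRNPs, 4 of 9 fell, beside 3.64% of all genes, and the difference was negative in 9 of 9, beside 52%, with a median of -0.88. By share (44.4%) this is near the 2 roles of 2 genes each, in which 1 gene fell. The box C/D class, which guides methylation of the ribose in ribosomal RNA, has fibrillarin (Fbl) as its methyltransferase and Nop56 and Nop58 as its scaffold. Fbl (ENSMUSG00000046865) stood at 103, 64.5, 97.7 and 91.1 FPKM in HI F1, F2, M1 and M2, and at 54.7, 41, 47.2 and 48.1 FPKM in LO. All LO libraries were below the lowest HI library, F2, and the log2 difference was -0.87 (SE 0.19, limma adjusted p = 0.0197). The call was lost without HI F1, HI M1, HI M2 or LO F2, with adjusted p of at most 0.0923 over all alternatives.

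Nop58 was at 54, 49.9, 58.1 and 44 FPKM in HI and 32.4, 27.5, 24 and 22.8 FPKM in LO (F1, F2, M1, M2). It fell 1.93-fold without overlap (log2 difference -0.93, SE 0.187, limma adjusted p = 0.0133), and kept its call when any 1 library was left out. Its partner Nop56 was at 247, 271, 321 and 391 FPKM in HI and 210, 221, 106 and 150 FPKM in LO. The groups did not overlap either, but the male LO libraries were far lower than the female ones, and the difference of -0.88 was not called (limma adjusted p = 0.0615). Rrp9, the protein specific to the U3 snoRNP that starts small subunit processing, was at 106, 84.3, 118 and 109 FPKM in HI and 33.3, 46.3, 62.1 and 49.5 FPKM in LO. It fell 2.18-fold (log2 difference -1.13, SE 0.21, limma adjusted p = 0.00873), also when any 1 library was left out.

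The box H/ACA class turns uridines into pseudouridines and holds dyskerin (Dkc1), the enzyme, with Nop10, Nhp2 and Gar1. Nop10, the smallest of its core proteins, was at 180, 157, 250 and 141 FPKM in HI F1, F2, M1 and M2, and at 80.3, 57.8, 102 and 58.6 FPKM in LO. HI M1 and LO M1 were the highest of their groups, which did not overlap, and the log2 difference was -1.28 (SE 0.24, limma adjusted p = 0.00915). Like that of Npm1, this call held under all 18 alternatives, with adjusted p of at most 0.0481.

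Dkc1 ranged from 158 to 305 FPKM in HI and from 102 to 163 FPKM in LO, a difference of -0.86 (limma adjusted p = 0.0566; adjusted p = 0.0186 without HI F1). Nhp2 ranged from 104 to 180 FPKM in HI and 72.4 to 101 in LO without overlap (difference -0.64, limma adjusted p = 0.0984). Gar1 had the widest spread of the 4 relative to its mean (SD of 33.9% in HI and 55.8% in LO), at 40.3 to 97 FPKM in HI and 19.8 to 68.6 in LO (difference -1.03, limma adjusted p = 0.162). Nolc1, a phosphoprotein that accompanies both classes of snoRNP, was at 75.1, 62.2, 62.5 and 47.8 FPKM in HI and 29.4, 46.9, 35 and 59.4 FPKM in LO. LO M2 exceeded HI M2, and Nolc1 was not called (difference -0.56, limma adjusted p = 0.229).

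**Figure D2:**
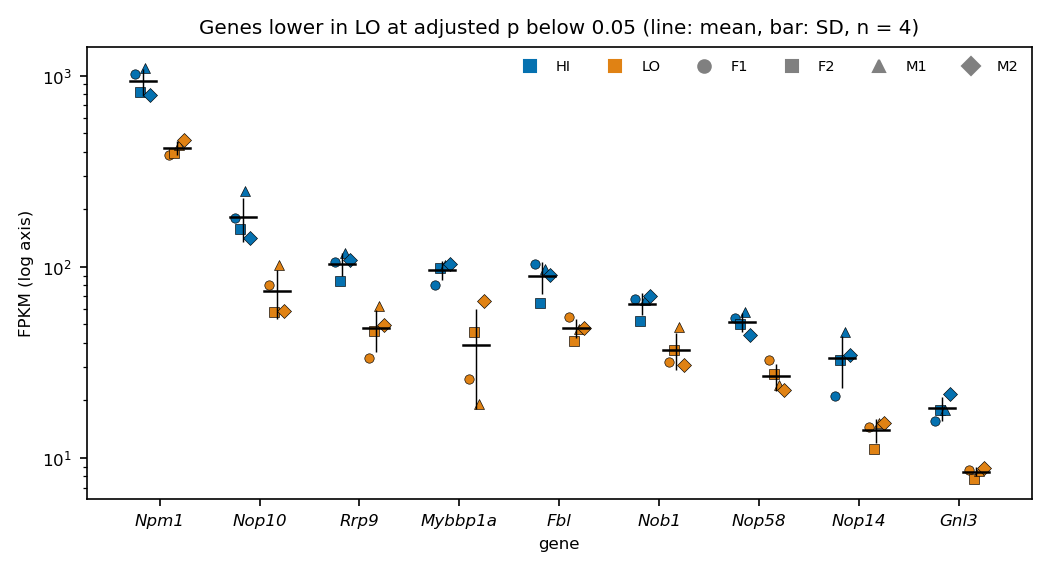
FPKM on a log axis for the 9 genes called lower in LO, with 1 point per library (blue HI, orange LO, symbols for F1, F2, M1 and M2), a line at the mean and a bar for the SD (n = 4). The HI and LO points of each gene do not overlap, from Npm1 at 935 against 418 to Gnl3 at 18.2 against 8.47 in the means, and Mybbp1a shows the widest spread of LO points, 19.2 to 65.9.

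Of the 6 genes of ribosomal DNA transcription, limma called 0, beside 3.64% lower and 4.65% higher among all genes, and 1 of 6 (Tcof1) was below an unadjusted p of 0.05. With 6 genes these counts do not set the role apart from all genes, and the median difference was -0.34. Ubtf, the factor that binds ribosomal DNA and keeps it open for RNA polymerase I, was at 83.5, 80.4, 96.7 and 110 FPKM in HI F1, F2, M1 and M2, and at 83.3, 103, 89.7 and 103 FPKM in LO. The groups overlapped fully, and the difference of 0.04 had a 95% interval from -0.32 to 0.40 (limma adjusted p = 0.929). The interval leaves out a fall of the size measured in Npm1.

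Tcof1, treacle, a cofactor of polymerase I and of precursor modification, was at 61.1, 67.7, 80.4 and 66.8 FPKM in HI and 43.7, 53.6, 44.6 and 51.6 FPKM in LO. It was the only 1 of these 6 genes without overlap between groups (difference -0.50, limma adjusted p = 0.0984). Polr1c, a subunit shared with RNA polymerase III, was at 78.3, 62.4, 93.9 and 73.2 FPKM in HI and 48.6, 54, 60.6 and 74.8 FPKM in LO, with LO M2 inside the HI range (difference -0.37, limma adjusted p = 0.316). Polr1a and Polr1b, the 2 largest subunits, were low, at 4.76 to 14.1 and 6.91 to 9.38 FPKM in HI and at 5.18 to 11.4 and 3.54 to 10.8 FPKM in LO. Polr1a had a difference of 0.23 (95% interval -0.62 to 1.08), the highest of the 46 genes, and Polr1b one of -0.33. Polr1e, another subunit, was at 45 ± 8.06 and 35.1 ± 5.59 FPKM (SD, n = 4 each; difference -0.35, limma adjusted p = 0.37).

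Of the 13 genes of small subunit processing and assembly, 2 fell (3.64% of all genes did), 13 had a negative difference (52% of all genes did), and the median was -0.63. Nop14, part of the early processing complex on the precursor RNA, was at 21, 32.6, 45.8 and 34.7 FPKM in HI F1, F2, M1 and M2, and at 14.6, 11.1, 15.2 and 15.2 FPKM in LO. The LO libraries lay close together below a wide HI range (difference -1.16, SE 0.263, limma adjusted p = 0.0235), and the call was lost when HI F2, HI M1, HI M2, LO F1 or LO F2 was left out (adjusted p at most 0.0946 over all alternatives). Nob1, the endonuclease that makes the final cut of the small subunit RNA in the cytoplasm, was at 67.5, 52, 66.7 and 70.6 FPKM in HI and 31.7, 36.9, 48.5 and 30.6 FPKM in LO. The groups did not overlap (difference -0.80, SE 0.199, limma adjusted p = 0.0369), but this call was lost under 10 of 18 alternatives, upper quartile scaling among them, with adjusted p up to 0.153.

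Imp3, a partner of the U3 snoRNP, stood at 94.2, 76.7, 108 and 69 FPKM in HI and at 87.9, 64.9, 97.6 and 58.4 FPKM in LO, with overlapping groups and a difference of -0.18 (95% interval -0.66 to 0.31, limma adjusted p = 0.709). Rrp12, Wdr43, Bysl and Ltv1 were not called, although their groups did not overlap. Rrp12, an export and assembly factor, ranged from 10 to 14.5 FPKM in HI and 5.31 to 8.46 in LO. Ltv1, which assembles the head of the small subunit, ranged from 45 to 56.3 FPKM in HI and 23.3 to 42.1 in LO, and was called without LO M2 (limma adjusted p = 0.036).

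For Bysl, an assembly factor of late small subunit precursors, the ranges were 13.1 to 21 and 9.58 to 11.5 FPKM, and for Wdr43, an early processing factor, 33.2 to 58.3 and 22 to 32.5 FPKM. Rrp12, Ltv1, Wdr43 and Bysl had differences of -0.77, -0.68, -0.63 and -0.62. The early processing factors Utp20, Imp4 and Noc4l, the helicase Ddx10 and Nat10 overlapped between groups, with differences between -0.69 and -0.31. Nat10, which acetylates cytidines of ribosomal RNA, varied most among them relative to its mean (SD of 61.5% in HI and 43.1% in LO), from 11.1 to 51.6 FPKM in HI and 8.75 to 25.2 in LO, and its interval ran from -1.71 to 0.34. Tsr1, a late assembly GTPase-like factor, had a difference of -0.63. In the GENCODE M21 annotation 32.3% of its exonic bases overlap Srr on the opposite strand, and since strand use in counting is not given, reads of both cannot be told apart. For Bysl 9.4% of exonic bases overlap Ccnd3, and for Nop56 8.1% overlap other models.

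Of the 14 measured genes of large subunit processing and assembly, 1 fell (3.64% of all genes did), which is close to that share for so few genes. The difference was negative in 14 of 14, against 52% of all genes, and the median was -0.39. Gnl3, nucleostemin, a nucleolar GTPase of dividing and stem cells, was at 15.6, 17.8, 17.8 and 21.7 FPKM in HI F1, F2, M1 and M2, and at 8.67, 7.8, 8.51 and 8.88 FPKM in LO. The 4 LO libraries were nearly equal and well below HI (difference -1.02, SE 0.22, limma adjusted p = 0.0189). The call was lost without HI F2, HI M2 or LO F2, without HI M1 and LO M2 together, and with the shared label as a block (limma adjusted p = 0.0622), with adjusted p of at most 0.083 over all alternatives. Nop16, an assembly factor of the large subunit, was at 62.6, 63, 70.8 and 40.6 FPKM in HI and 33.7, 37.7, 36.7 and 28.5 FPKM in LO, with HI M2 close to the LO range. It missed the threshold (difference -0.76, limma adjusted p = 0.0574) and was called without HI M2 (adjusted p = 0.0205).

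The 3 proteins of the complex that processes the large subunit RNA, Bop1, Pes1 and Wdr12, showed small differences. Bop1 was at 70.5, 53.1, 52.1 and 71.7 FPKM in HI and 58.3, 61.5, 40.4 and 59.1 FPKM in LO, with overlap (difference -0.17, 95% interval -0.62 to 0.27, limma adjusted p = 0.689). Pes1 was at 73.2 ± 5.27 and 63.6 ± 7.1 FPKM (difference -0.20, 95% interval -0.54 to 0.14), and Wdr12 at 28 ± 6.98 and 22.5 ± 9.18 (difference -0.36, 95% interval -1.10 to 0.39; SD, n = 4 each).

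Nle1, which acts on late large subunit precursors, had the largest difference of this role, -1.06, but it rested on HI M1: the HI libraries were at 14.8, 19.2, 94.3 and 26.5 FPKM and the LO libraries at 24, 18.4, 6.1 and 11.9 FPKM (limma adjusted p = 0.337). Noc3l, an early assembly factor, at 2.23 to 5.96 FPKM in HI and 0.386 to 2.53 in LO, was among the lowest of the 46 genes (difference -0.95, limma adjusted p = 0.241). Rrs1, which brings a small ribosomal RNA into the large subunit, did not overlap between groups, at 18.8 to 28.4 and 14.2 to 17.4 FPKM (difference -0.48, limma adjusted p = 0.236). The assembly factors Ebna1bp2, Rrp1b and Nip7, the RNA methyltransferase Nop2, the helicase Ddx18 and the GTPase Gnl2 overlapped between groups, with differences between -0.50 and -0.32.

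Of the nucleolar proteins with several roles, Mybbp1a, a regulator of ribosomal DNA transcription and precursor processing, had the largest difference of all 46 genes. It was at 80, 99.1, 102 and 104 FPKM in HI F1, F2, M1 and M2, and at 25.9, 45.4, 19.2 and 65.9 FPKM in LO. The groups did not overlap but LO M2 and LO F2 were well above LO F1 and LO M1 (difference -1.42, SE 0.34, limma adjusted p = 0.0298). The call was lost under 8 of 18 alternatives, with adjusted p up to 0.0792, 6 of them a single library left out. The RNA helicase Ddx21, which links polymerase I and snoRNP function, was at 23.4, 22.9, 23.1 and 25.7 FPKM in HI and 18.9, 22.8, 21 and 26.5 FPKM in LO. Its groups overlapped, and its difference was -0.10 (95% interval -0.52 to 0.33, limma adjusted p = 0.828).

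**Figure D3:**
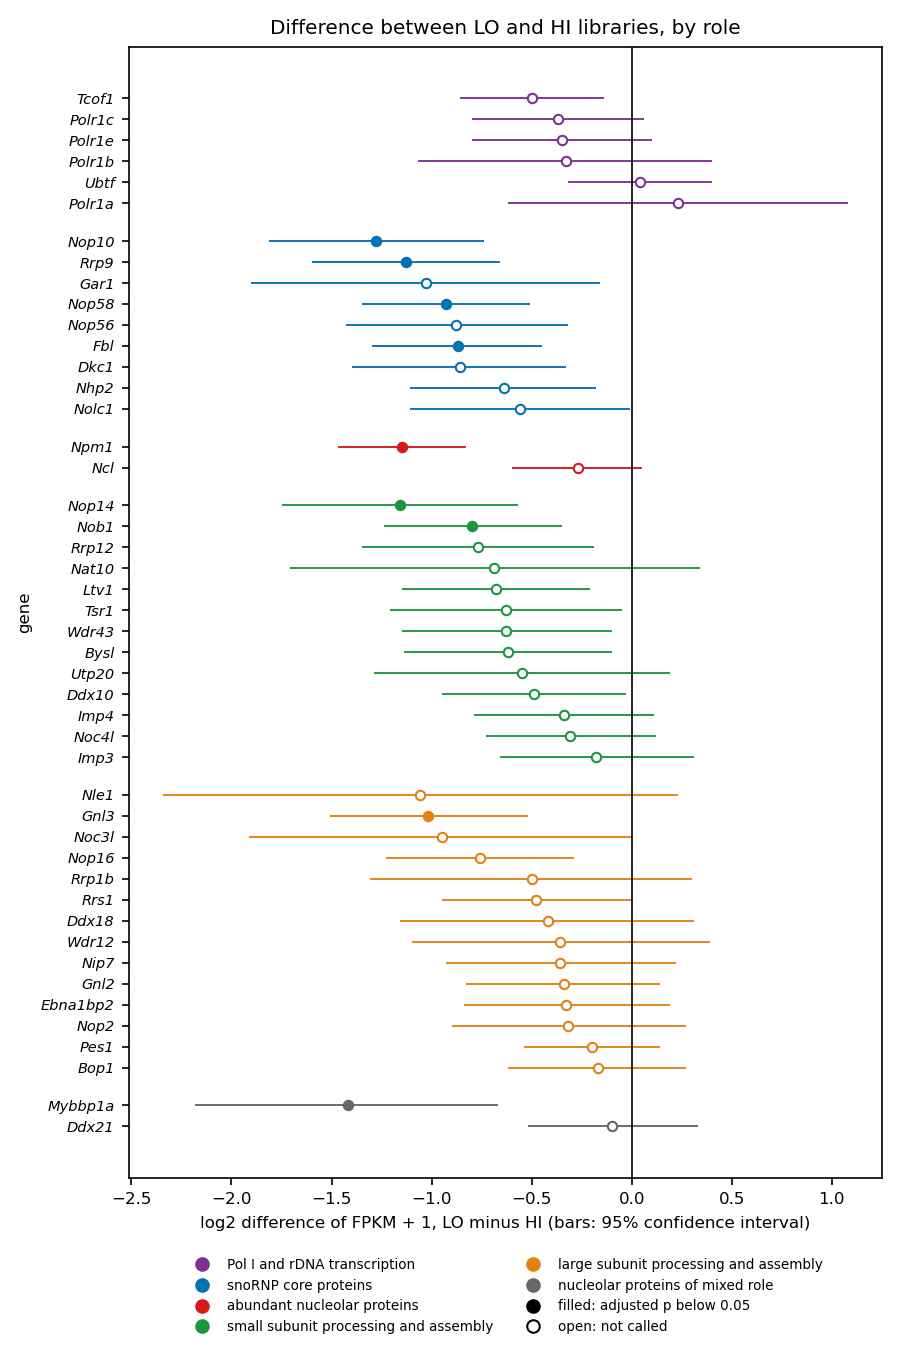
Log2 difference of FPKM + 1, LO minus HI, for each of the 46 genes by role, with bars for the 95% confidence interval and filled points for adjusted p below 0.05. All points except Ubtf (0.04) and Polr1a (0.23) lie left of 0, the snoRNP core genes lie between -1.28 and -0.56, and the polymerase I genes between -0.50 and 0.23.

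The differences were also set beside the level and the length of the genes. For the 8 genes with a mean below 20 FPKM, the 22 genes from 20 to 60 and the 16 genes at 60 or more, the median differences were -0.58, -0.53 and -0.51, against 0.02, -0.05 and -0.08 over all genes tested in those classes. Among genes with a mean of at least 20 FPKM, 8 of 38 of the nucleolar genes fell, beside 5.32% of all such genes, and 37 of 38 had a negative difference, beside 55.9%. By length of the longest annotated transcript, the 5 genes under 1500 bases, the 19 from 1500 to 3000 and the 22 of 3000 or more had medians of -0.64, -0.68 and -0.53, against -0.16, -0.04 and 0.01 over all genes in those classes. By length, 1, 6 and 2 of the nucleolar genes fell, beside 7.57%, 3.94% and 2.28% of all genes.

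The labels give sex, so the difference between LO and HI could be set side by side for females and males. The median over the 46 genes was -0.53 in females and -0.60 in males, against 0.03 and -0.07 over all genes tested, and the difference was negative in 41 genes in females and 43 in males. For the interaction of sex and reporter level, 0 of the 46 genes were called (limma, adjusted over all genes), beside 0.0178% of all genes tested. This count says little, since the SE of the interaction ran from 0.329 (Npm1) to 0.981 (Nat10) on the log2 scale with 2 libraries per sex and gate, and few genes of any kind were called. At an unadjusted p below 0.05 there were 2, beside 3.83% of all genes, Nop56 (-0.27 in females, -1.48 in males) and Nle1 (0.30 and -2.42). Rrp1b (-1.13 in females, 0.12 in males) and Ddx18 (0.09 and -0.93) did not reach this level (unadjusted limma p of the interaction 0.0963 and 0.101).

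Other genes of the pathway were taken from lists that leave out the 46. Of 123 tested genes in 5 lists, which share 1 gene, 1 fell (0.813%) and 0 rose, beside 3.64% and 4.65% of all genes. The difference was negative in 99, beside 52% of all genes, and the median was -0.31, beside -0.03. All 4 LO values lay below all 4 HI values in 12 of the 123, close to the 7.18% of all genes tested. They lay above in 0, beside 7.9%. The gene that fell was Wdr46, of the small subunit processome, at 56.8, 61.3, 52.1 and 49.2 FPKM in HI and 23.1, 26.7, 22.5 and 30.1 FPKM in LO (F1, F2, M1, M2; difference -1.07, SE 0.177, limma adjusted p = 0.00491). The lists had medians of -0.23 for polymerase I and its factors (9 genes), -0.29 for snoRNP assembly (10 genes), -0.32 for the small subunit (40 genes), -0.35 for the large subunit (53 genes) and -0.27 for the nuclear exosome, which trims the RNAs (12 genes). Of 8 tested RNAs that host snoRNAs in their introns, 0 were called by limma, beside 3.64% lower and 4.65% higher among all genes. Gas5, Snhg12 and Snhg17 were lower at an unadjusted limma p below 0.05, beside 10.3% of all genes. The most abundant, Gas5, was at 863 ± 251 FPKM in HI and 506 ± 116 in LO (SD, n = 4 each; difference -0.75, limma adjusted p = 0.089).

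The proteins that are assembled into ribosomes were tested as further lists. Of 75 tested genes of cytosolic ribosomal proteins, 69 fell (92%) and 0 rose, beside 3.64% and 4.65% of all genes, with a median difference of -1.22. Of 77 tested genes of mitochondrial ribosomal proteins, which are not assembled in the nucleolus, 1 fell (Mrpl30, 1.3%) and 0 rose, with a median of -0.18. Whether these lists differ from the 46 genes was not tested. Myc was at 135, 107, 112 and 86.4 FPKM in HI and 25.7, 29.6, 27.5 and 35.1 FPKM in LO (F1, F2, M1, M2), so that every LO library was below every HI library (difference -1.86, SE 0.187, limma adjusted p = 0.000485).

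**Figure D4:**
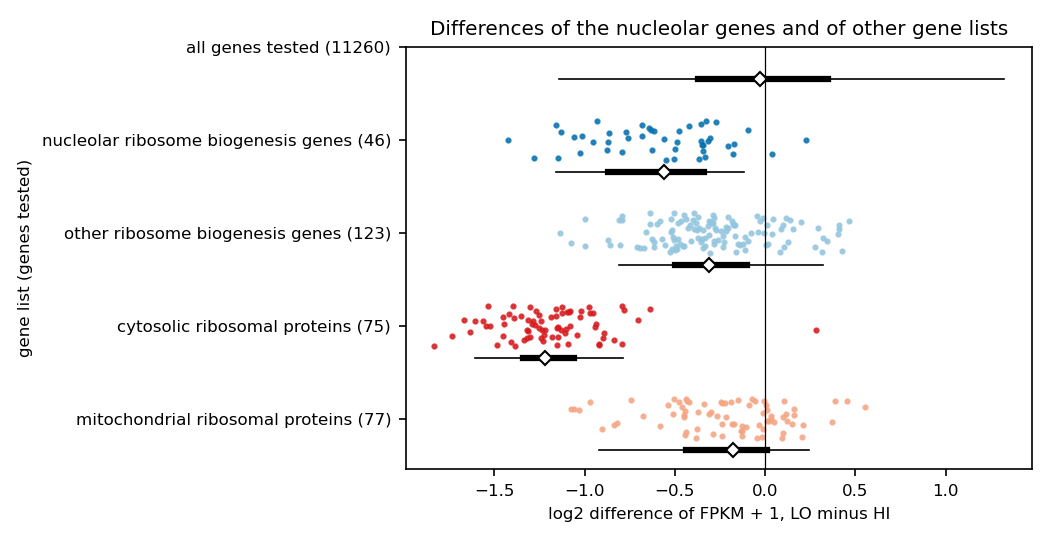
Each point is a gene of the list on the vertical axis and its log2 difference of FPKM + 1, LO minus HI, is on the horizontal axis; below the points, a thin line spans the outer percentiles (5 to 95), a thick line the quartiles and a diamond marks the median, and for all 11260 genes only these are drawn. The medians are -0.03 for all genes, -0.56 for the 46 nucleolar genes, -0.31 for the other ribosome biogenesis genes, -1.22 for cytosolic and -0.18 for mitochondrial ribosomal proteins.

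Promoters were read from RefSeq windows of build GRCm38.p6, 250 bases before to 50 after a start of transcription, found for 40 of the 47 genes in 49 windows. Bop1, Fbl, Gnl2, Npm1, Rrp12, Rrs1 and Tcof1 have no window. The E-box CACGTG, the word that Myc and its relatives bind, reads the same on both strands and stands in 9 of the 49 windows (18.4%), against 7.15% of all 32851 windows and 10.2% of the windows of genes tested here. The word CCGGAAGT of ETS factors, searched on both strands, stands in 10 (20.4%), against 3.89% of all and 9.06% of tested windows. The 10 are windows of 9 genes and include overlapping windows of Noc2l, which has no value here. The word TGANTCA, with any base at N, is looser than the site that AP-1 and Bach factors bind. Searched on both strands, it stands in 0 of the 49, against 7.81% of all and 4.84% of tested windows. With 49 windows this count does not set the genes apart from the tested windows. Several windows of 1 gene overlap, so they are not independent.

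Of the 7 called genes with a window, 1 holds an E-box (Mybbp1a), and of the 32 uncalled tested genes with a window 8 do. The ETS word is in 0 of the 7 and 8 of the 32. In Mybbp1a the E-box begins at base 41 after the start. The bases after this start were not found in the first part of a GENCODE M21 transcript of the gene. Among the E-box genes the same held for Imp4, Nop2 and Utp20, but not for Ltv1, Nle1, Pes1, Tsr1 and Wdr43. Parts of windows are shown for 3 genes with the E-box and for 3 called genes without any of these words, from 150 bases before to 30 after the start, on the strand of the gene, with matched words in capitals. The first letter of the E-box is at base 3 after the start in Pes1, 18 in Wdr43 and 25 in Tsr1, counting the start as 1, and Tsr1 also holds the ETS word.
Pes1 (chr11:3963825-3964004, plus strand): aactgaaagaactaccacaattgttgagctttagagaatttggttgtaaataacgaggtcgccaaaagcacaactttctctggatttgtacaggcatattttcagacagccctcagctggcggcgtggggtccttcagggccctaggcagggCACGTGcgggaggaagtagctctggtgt
Wdr43 (chr17:71616065-71616244, plus strand): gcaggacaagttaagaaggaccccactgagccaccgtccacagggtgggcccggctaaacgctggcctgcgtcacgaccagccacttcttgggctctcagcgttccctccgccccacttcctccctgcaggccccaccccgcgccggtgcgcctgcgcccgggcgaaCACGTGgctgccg
Tsr1 (chr11:74897930-74898109, plus strand): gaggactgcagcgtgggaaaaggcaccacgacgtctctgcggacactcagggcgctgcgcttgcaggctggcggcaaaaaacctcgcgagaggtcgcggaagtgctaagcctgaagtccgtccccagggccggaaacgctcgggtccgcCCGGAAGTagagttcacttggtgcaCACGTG
Nop58 (chr1:59684856-59685035, plus strand): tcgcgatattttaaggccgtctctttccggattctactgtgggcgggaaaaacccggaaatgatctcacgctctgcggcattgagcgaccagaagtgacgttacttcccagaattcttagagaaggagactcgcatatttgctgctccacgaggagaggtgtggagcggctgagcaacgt
Rrp9 (chr9:106477159-106477338, plus strand): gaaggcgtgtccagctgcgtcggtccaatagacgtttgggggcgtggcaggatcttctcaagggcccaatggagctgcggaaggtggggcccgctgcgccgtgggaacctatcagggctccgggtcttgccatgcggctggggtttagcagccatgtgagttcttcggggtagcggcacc
Nop10 (chr2:112261776-112261955, plus strand): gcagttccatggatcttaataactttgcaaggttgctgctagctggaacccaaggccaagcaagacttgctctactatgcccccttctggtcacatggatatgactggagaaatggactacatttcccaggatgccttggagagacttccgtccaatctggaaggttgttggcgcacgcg
A matched word is a description of these letters and no measurement of binding.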

How the data were processed

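The deposited table holds FPKM values for 36811 gene models, 1 column per library, which the authors took from Cuffnorm, per the table's name. Per the submitters' processing notes, tools were HISAT2, cutadapt and FastQC, and builds mm9 and NCBIM37. Annotation, strand use and versions: not given in the sources used here. The series' design text describes another experiment and was not used. Groups were taken from the titles, and symbols by Ensembl identifier from GENCODE M21, another build, so gene positions are not given. Coordinates are printed only for promoter windows, as RefSeq gives them on GRCm38.p6.

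Genes had to reach an FPKM of 1 in 4 or more libraries. On log2(FPKM + 1), LO was tested against HI by limma (version 3.58.1, R version 4.3.3; eBayes with a variance trend, Benjamini-Hochberg adjustment at 0.05), which understates changes of low genes. Folds are ratios of mean FPKM. Relative depth came from the most frequent ratio to HI F1 among models below 2 FPKM. The script was tested on simulated data with 200 of 11260 genes changed. A log2 change of 1 between LO and HI was called in 11.5% of them, and a change of 2 in 69.5%. For the interaction of sex and reporter level these shares were 0% and 0.5%. Most changes of the smaller size were thus missed. Alternatives were a pseudocount of 0.1, no filter, FPKM of at least 5, quantile and upper quartile scaling, other eBayes settings, sex, the label as a block, and each library left out.

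The genes and lists were chosen with earlier results of these data known. The 3 genes Npm1, Ncl and Fbl, and in each role the 2 with the smallest and the 1 with the largest p, were to be shown by library. Others were chosen after their values were seen.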

Additional observations from a re-analysis of the deposited data

Results flagged for a closer look

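In 7 of 92 sets of 4 libraries (46 genes, HI and LO), 1 library stood apart from the other 3 by Dixon's criterion, which chance meets in about 1 in 20 sets. In HI M1, the shallowest library, Nle1 was at 94.3 FPKM against 14.8 to 26.5 in the other HI libraries, Wdr43 at 58.3 against 33.2 to 37.1, and Ncl at 116 against 106 to 108. Ddx21 was at 25.7 FPKM in HI M2 against 22.9 to 23.4. Low values were those of Polr1e in LO F1 (26.7 FPKM against 37.3 to 38.5), Nop14 in LO F2 (11.1 against 14.6 to 15.2) and Bop1 in LO M1 (40.4 against 58.3 to 61.5).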

How the results depend on the processing

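Under the 18 alternatives the median of the 46 genes stayed between -0.62 and -0.47, and 0 of the 46 were called higher under any of them. The number called lower ranged from 5 to 9 with 1 library left out and was 7 to 10 under the other 9 alternatives listed in the methods. Over all genes, 586 to 754 were called with 1 library left out, against 934 with all. Without HI M1 and LO M2 together, an alternative added after seeing the data, 545 genes and 3 of the 46 were called. Of the other ribosome biogenesis genes, 2 were called lower with sex as a covariate and 1 to 2 with 1 library left out. Ubtf changed sign without HI F1 (-0.01), HI F2 (-0.03), LO F2 (-0.00) or LO M2 (-0.01), with a range of -0.03 to 0.12 over single libraries left out, and without HI M1 and LO M2 together Polr1a was at -0.05 and Imp3 at 0.05. The causes were not tested. With the replicate block (the label shared by a HI and a LO library) 7 of the 46 (not Gnl3 and Nob1) and 771 genes were called, but deviations of same-named libraries correlated at only 0.0149 to 0.113, so the labels were not treated as pairs. LO F1 (0.0522), LO M1 (0.0699) and LO M2 (0.113) correlated best with the HI library of their own name. LO F2 correlated best with HI M2 (0.0583), not with its own name (0.0149). These small values do not settle whether same-named libraries are pairs. Without the unknown read totals, the counting error of low genes such as Utp20 and Noc3l cannot be given.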
